A study of Drosophila melanogaster with 8 samples.

Results

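The *Cyp4d* and *Cyp4e* genes are 2 subfamilies of cytochrome P450s in *Drosophila melanogaster*. Every entry whose gene name began with Cyp4d or Cyp4e was taken, without regard to its level, which gave 9 genes (6 *Cyp4d* and 3 *Cyp4e*) of the 14207 named entries in the expression table. Midguts were dissected from pooled larvae at the feeding stage of the third instar and cut into 8 subsections: 3 from the anterior midgut (M1, M2 and M3–5, the last written M3-4-5 in the labels), 2 from the middle midgut (M6, with the copper cells, and M7–8) and 3 from the posterior midgut (M9, then M10–11, then M12–13). The labels give the strain of all 8 samples as w1118. By the methods of the study, the larvae came from a cross of flies homozygous for a *Cyp4d2*-promoter *GAL4* transgene with w1118 flies carrying UAS-*GFP*.nls, and the fluorescent progeny, which carried both transgenes, were used because the fluorescence marked where to cut. The larvae were raised on a standard medium with no added xenobiotic, and their sex is not given in the sources used here. Each subsection was sequenced as 1 library, with no replicates. Differences between subsections were therefore not tested, and the values carry no error over larvae.

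P450s are heme enzymes that insert an oxygen atom into their substrates, with electrons delivered by NADPH-cytochrome P450 reductase (*Cpr*) and in some reactions by cytochrome b5 (*Cyt-b5*). Members of the CYP4 family are best known for hydroxylating fatty acids and related lipids near the end of the chain, and several insect members respond to foreign compounds in the diet. The substrates of most *Cyp4d* and *Cyp4e* enzymes in the fly midgut are not known. *Cyp4d21*, also called *sxe1*, is a sex-regulated gene of the head with a role in male courtship, and *Cyp4e3* has been linked to permethrin tolerance in the Malpighian tubules of adult flies.

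Levels are given in FPKM, a count of sequenced fragments divided by exon length and by the size of the library, which is per length and so allows genes to be compared within a library. A gene was counted as detected when its FPKM summed to at least 1 over the 8 libraries. By this limit 7 of the 9 genes were detected, 4 of 6 *Cyp4d* and 3 of 3 *Cyp4e*, and 9156 (64.4%) of all named entries were. *Cyp4e1* was the least abundant detected gene, with a sum of 4.77 FPKM, and *Cyp4d20*, the more abundant of the other 2 genes, had a sum of 0.0126 FPKM, far below the limit. The number of reads behind each value is not in the table, and M6 was sequenced less deeply than the other subsections by the methods of the study, which also describe its RNA as more prone to degradation. The part of depth and RNA quality in the M6 values was not tested. Over all named entries, the summed FPKM of a library ran from 542365 (M12–13) to 1806163 (M2). This sum leaves out the entry without an identifier, which held 4.24% to 48.4% of the summed FPKM of a library.

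**Figure D1:**
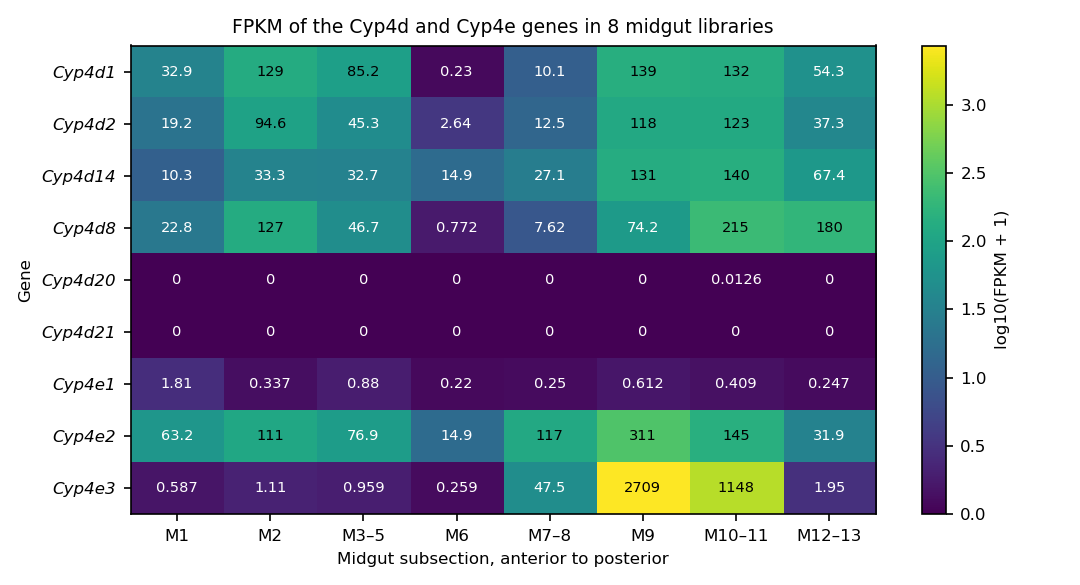
FPKM of the 9 genes (rows) in the 8 libraries (columns, anterior to posterior), with the value printed in each cell and the color giving log10(FPKM + 1). *Cyp4e3* reached 2709 FPKM in M9 and did not pass 1.95 FPKM in M12–13 or anywhere before M7–8, *Cyp4d1*, *Cyp4d2* and *Cyp4d8* were low in M6, and *Cyp4d20* and *Cyp4d21* were at or close to 0 throughout.

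The detected paralogs overlapped along the midgut, with 5 or 6 of them above 10 FPKM in every library except M6, where 2 were, and 5 different genes led the 8 libraries. The share of all entries above 10 FPKM in each library was not computed, so the counts above 10 FPKM have no background. *Cyp4e2* had the highest FPKM of the 9 genes in M1 and M7–8, *Cyp4d1* in M2 and M3–5, *Cyp4d14* in M6, *Cyp4e3* in M9 and M10–11, and *Cyp4d8* in M12–13. The lead was narrow in M2, where *Cyp4d1* had 129 FPKM and *Cyp4d8* 127 FPKM, and in M6, where *Cyp4d14* and *Cyp4e2* both had 14.9 FPKM. It was wide in M9, where *Cyp4e3* had 2709 FPKM and *Cyp4e2*, next in order, 311 FPKM. The 9 genes summed to 151 (M1), 495 (M2), 289 (M3–5), 33.9 (M6), 222 (M7–8), 3483 (M9), 1902 (M10–11) and 373 FPKM (M12–13). The total was thus lowest in M6 and highest in M9.

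Of this total, the *Cyp4d* genes held 56.5% (M1), 77.4% (M2), 72.7% (M3–5), 54.8% (M6), 25.8% (M7–8), 13.3% (M9), 32.0% (M10–11) and 90.9% (M12–13). The *Cyp4e* genes held the rest and were the larger part in M7–8, M9 and M10–11. *Cyp4e3* alone made up 21.4% of the total in M7–8, 77.8% in M9 and 60.3% in M10–11. *Cyp4e2* made up 41.9% in M1 and 52.7% in M7–8. *Cyp4d14* and *Cyp4e2* together held most of the total in M6, with 44.0% and 43.8%, and *Cyp4d8* held 48.2% in M12–13.

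**Figure D2:**
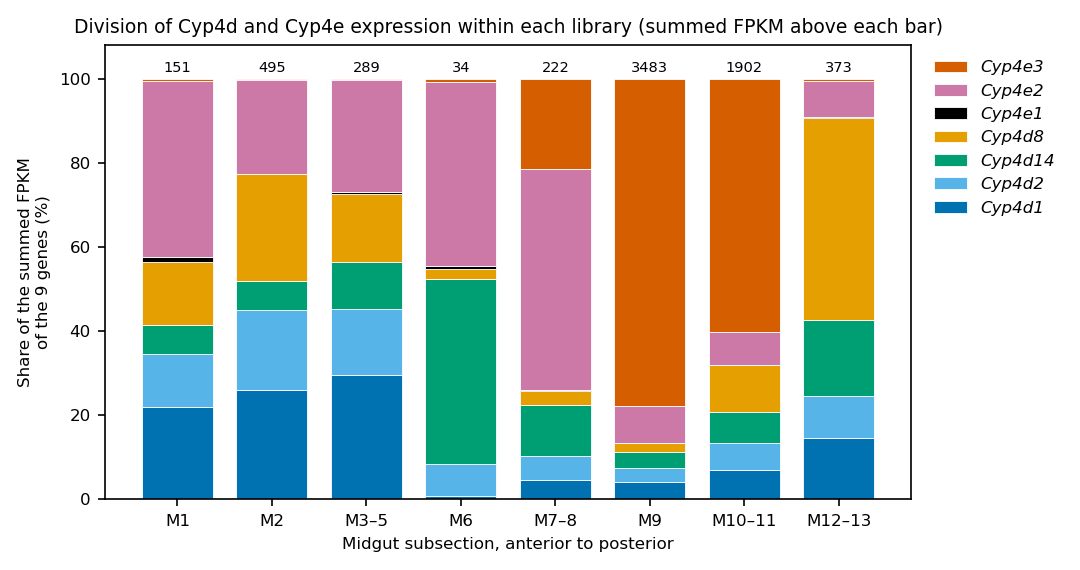
Share of the summed FPKM of the 9 genes held by each detected gene, as stacked bars for the 8 libraries from anterior to posterior, with the sum above each bar. The *Cyp4d* genes held 90.9% of the sum in M12–13, whereas *Cyp4e3* held 77.8% of it in M9.

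Set against all 81 P450 genes in the table, the 9 genes held 3.51% (M1), 8.10% (M2), 5.44% (M3–5), 1.34% (M6), 5.73% (M7–8), 43.4% (M9), 28.8% (M10–11) and 13.2% (M12–13) of the P450 FPKM. Without *Cyp4e3*, the share was 14.6% (M9), 13.8% (M10–11) and 13.1% (M12–13) in the posterior midgut and 1.33% (M6) to 8.08% (M2) elsewhere. The posterior subsections thus had the larger shares with and without *Cyp4e3*. In these bulk libraries, fewer cells of a type and less RNA per cell cannot be told apart. In M10–11, 6 of the 9 genes exceeded 100 FPKM, in M9 5 did, in M2 3, in M7–8 and M12–13 1 each, and in M1, M3–5 and M6 none. These counts have no background, as the share of all entries above 100 FPKM in each library was not computed.

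*Cyp4d1* (FBgn0005670; chromosome X, 2053178 to 2056213 on release 5) had FPKM values of 32.9 (M1), 129 (M2), 85.2 (M3–5), 0.230 (M6), 10.1 (M7–8), 139 (M9), 132 (M10–11) and 54.3 (M12–13). It had a high stretch in M2 and M3–5 and another in M9 and M10–11, with a gap in the middle midgut. On the log2(FPKM + 1) scale, the M6 value minus the mean of the other 7 libraries was −5.70. *Cyp4d2* (FBgn0011576; chromosome X, 2069850 to 2075031) followed a similar course, with values of 19.2 (M1), 94.6 (M2), 45.3 (M3–5), 2.64 (M6), 12.5 (M7–8), 118 (M9), 123 (M10–11) and 37.3 FPKM (M12–13). The promoter of this gene drove *GAL4* in the larvae used, and by the methods of the study its fluorescence lay in M2, M4, M6, M9 and M12–13. The FPKM of *Cyp4d2* itself was lowest in M6, and the *GAL4* and *GFP* transcripts were not analysed here.

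*Cyp4d8* (FBgn0015033; chromosome 3L, 7486657 to 7489279) had FPKM values of 22.8 (M1), 127 (M2), 46.7 (M3–5), 0.772 (M6), 7.62 (M7–8), 74.2 (M9), 215 (M10–11) and 180 (M12–13). Its gap in the middle midgut was like that of *Cyp4d1* and *Cyp4d2*, but its high posterior stretch lay further back. On the log2 scale, M12–13 minus M10–11 was −0.25 for *Cyp4d8*, −1.26 for *Cyp4d1* and −1.69 for *Cyp4d2*. When all libraries were brought to 1 summed FPKM, *Cyp4d8* was highest in M12–13.

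*Cyp4d14* (FBgn0023541; chromosome X, 2066559 to 2069348) had FPKM values of 10.3 (M1), 33.3 (M2), 32.7 (M3–5), 14.9 (M6), 27.1 (M7–8), 131 (M9), 140 (M10–11) and 67.4 (M12–13). Unlike for the other 3 detected *Cyp4d* genes, its lowest value was in M1, the 3 posterior values all exceeded the 5 others, and M6 minus the mean of the other 7 libraries was −1.54 on the log2 scale. *Cyp4d14* shares a Cuffdiff bundle, a stretch of the genome quantified together, with *CG3621*, which encodes a subunit of mitochondrial NADH dehydrogenase. The release 6 models of *Cyp4d14* and *CG3621* lie on opposite strands and overlap by 18 bases. *CG3621* had FPKM values of 916 (M1), 751 (M2) and 408 (M3–5) in the anterior midgut and of 95.6 (M9) to 152 (M6) elsewhere.

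By the methods of the study the libraries were unstranded, so reads from such an overlap cannot be told apart by strand. The upper end of the deposited 95% interval of *Cyp4d14* was 31.2 times its FPKM in M1, 9.70 times in M2 and 5.97 times in M3–5, where *CG3621* was most abundant, and between 3.01 and 5.26 times in the other libraries. The part of *CG3621* in the anterior values of *Cyp4d14* was not tested.

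*Cyp4e2* (FBgn0014469; chromosome 2R, 4332065 to 4334669) was present along the whole midgut, with 63.2 (M1), 111 (M2), 76.9 (M3–5), 14.9 (M6), 117 (M7–8), 311 (M9), 145 (M10–11) and 31.9 FPKM (M12–13). Its highest value was in M9 and its lowest in M6. In M7–8, where *Cyp4d1*, *Cyp4d2* and *Cyp4d8* had between 7.62 and 12.5 FPKM, *Cyp4e2* was about as abundant as in M2. M12–13 minus M10–11 was −2.15 on the log2 scale.

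*Cyp4e3* (FBgn0015035; chromosome 2L, 9747839 to 9750071) was restricted to a shorter stretch, with 0.587 (M1), 1.11 (M2), 0.959 (M3–5), 0.259 (M6), 47.5 (M7–8), 2709 (M9), 1148 (M10–11) and 1.95 FPKM (M12–13). M9 held 69.3% of its summed FPKM and M10–11 29.4%. It ranked 37 among all named entries in M9 and 81 in M10–11. Both edges of this stretch were steep, with 5.80 for M9 minus M7–8 and −8.60 for M12–13 minus M10–11 on the log2 scale. At the same edges, *Cyp4d1*, *Cyp4d2*, *Cyp4d8*, *Cyp4d14* and *Cyp4e2* had differences of 1.40 to 3.66 for M9 minus M7–8 and of −2.15 to −0.25 for M12–13 minus M10–11.

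*Cyp4e1* (FBgn0015034; chromosome 2R, 4334956 to 4339409) was close to the limit of detection, with 1.81 (M1), 0.337 (M2), 0.880 (M3–5), 0.220 (M6), 0.250 (M7–8), 0.612 (M9), 0.409 (M10–11) and 0.247 FPKM (M12–13). It was the detected gene whose highest value lay in M1. Its bundle also holds the maltase gene *Mal-A1*, and the release 6 models of *Cyp4e1* and *Mal-A1* overlap by 82 bases on opposite strands. *Mal-A1* had FPKM values of 1345 (M1), 666 (M2), 1322 (M3–5) and 8.30 (M6), and of at most 1.36 in the other libraries. In M1, M2 and M3–5 the upper end of the interval of *Cyp4e1* was 125, 32.6 and 88.4 FPKM, and from M6 to M12–13 it was at most 2.52 FPKM. The part of *Mal-A1* reads in the anterior values of *Cyp4e1* was not tested.

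*Cyp4d20* (FBgn0035344; chromosome 3L, in a bundle from 2466903 to 2499226 with *CG16762*, *CG1146* and *CG33232*) was listed at 0 in 7 libraries and at 0.0126 FPKM in M10–11, with an upper end of 1.32 FPKM. *Cyp4d21* (FBgn0031925; chromosome 2L, 7605600 to 7607701) was listed at 0 in all 8 libraries, as were 1585 entries of the table. With no counts in the table, these zeros give no limit on the number of transcripts.

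**Figure D3:**
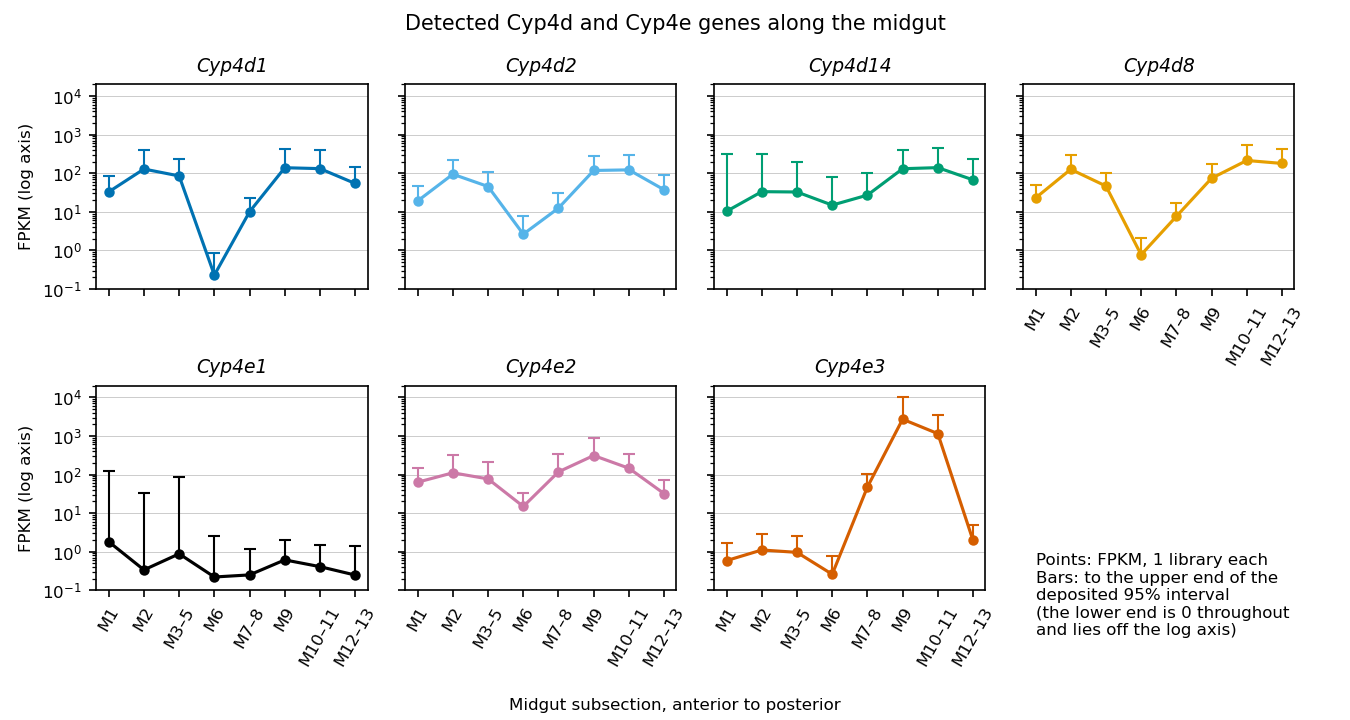
FPKM of the 7 detected genes along the midgut on a log axis, as 1 point per library, with bars up to the upper end of the deposited 95% interval, whose lower end is 0 in all of these libraries. The bars of *Cyp4e1* and *Cyp4d14* are long in M1, M2 and M3–5, where the upper end was up to 100.5 and 31.2 times the FPKM, whereas for the other 5 genes it was between 2.20 and 3.73 times the FPKM.

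The deposited intervals, which come from a dispersion estimated without replicates, did not separate the libraries. The lower end was 0 in all 72 values of the 9 genes, so the intervals overlapped in all 196 pairs of libraries of the detected genes. Over all detected entries, 0.0778% of the values had a lower end above 0. No order between neighboring levels of a gene can therefore be taken as larger than the error given in the table. As a description, the upper end in M6 was 0.836 FPKM for *Cyp4d1*, 7.86 FPKM for *Cyp4d2* and 2.12 FPKM for *Cyp4d8*, and the FPKM of these genes in each of the other 7 libraries lay above it. For *Cyp4e2* the upper end in M6 was 33.8 FPKM, and M12–13, at 31.9 FPKM, lay below it. For *Cyp4e3* 6 of the other 7 libraries lay above the upper end in M6 (0.773 FPKM), for *Cyp4d14* 2 did (78.5 FPKM) and for *Cyp4e1* none (2.52 FPKM). The same comparison was not made for all detected entries, so these counts have no background.

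The detected genes were most often highest in M9 or M10–11 and lowest in M6. The highest value was in M9 or M10–11 for 6 of 7 genes (*Cyp4e1* was the exception), against 17.3% of all detected entries. Among the other Cyp4 genes this was so for 5 of the 10 detected of 13, and among the P450s outside both subfamilies for 18 of the 56 detected of 72. M6 held the lowest value of 6 of 7 genes (*Cyp4d14* was the exception), against 36.2% of all detected entries, 7 of the 10 other Cyp4 genes and 26 of the 56 other P450s. With each library rescaled to the same summed FPKM, M6 was lowest for 4 genes and for 18.7% of all detected entries. With a median ratio to the geometric mean over genes as the divisor of each library, these values were 5 genes and 20.8%.

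M6 lay at least 4-fold below the mean of the other 7 libraries, on the (FPKM + 1) scale, for 5 of 7 genes: *Cyp4d1*, *Cyp4d2*, *Cyp4d8*, *Cyp4e2* and *Cyp4e3*. This was so for 6.31% of all detected entries, 3 of the 10 other Cyp4 genes (*Cyp4ac1*, *Cyp4ac3* and *Cyp4ad1*) and 10 of the 56 other P450s. Entries of low level cannot reach 4-fold on this scale, because 1 is added to each value. *Cyp4e1*, with a log2 mean of 0.66 over the other 7 libraries, could not pass. That mean ran from 4.49 (*Cyp4e3*) to 6.64 (*Cyp4e2*) for the other detected genes. A share among entries of like level was not computed. M6 minus the mean of the other 7 libraries was −5.70 for *Cyp4d1*, −5.14 for *Cyp4d8*, −4.16 for *Cyp4e3*, −3.75 for *Cyp4d2*, −2.66 for *Cyp4e2*, −1.54 for *Cyp4d14* and −0.38 for *Cyp4e1* in log2 units. All 7 were negative under each scaling tried, as was the median of all detected entries. The median was −3.75 over the detected genes, −1.06 over the other Cyp4 genes, −0.84 over the other P450s and −0.30 over all detected entries. Transcripts of the 7 genes were 1591 to 2024.5 nt long, and the 1227 detected entries in this range had a median of −0.37. The median of all detected entries in M6 was −0.05 after rescaling to the same summed FPKM and −0.04 after division by the median ratio, and the count of 5 genes was the same under both.

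The partners of the P450s were low in M6 too. *Cpr* had FPKM values of 236 (M1), 434 (M2), 329 (M3–5), 70.1 (M6), 192 (M7–8), 345 (M9), 365 (M10–11) and 169 (M12–13). *Cyt-b5* had 136 FPKM in M6, and its other values ran from 249 FPKM (M7–8) to 1089 FPKM (M2). Both were lowest in M6, yet far above the M6 level of every *Cyp4d* and *Cyp4e* gene.

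M9 and M10–11 exceeded the anterior midgut (the mean of M1, M2 and M3–5) at least 2-fold on the (FPKM + 1) scale for 5 of 7 genes, *Cyp4d2*, *Cyp4d8*, *Cyp4d14*, *Cyp4e2* and *Cyp4e3*. This was so for 15.8% of all detected entries, 4 of the 10 other Cyp4 genes and 15 of the 56 other P450s. Entries of low level cannot pass this limit either, and a share among entries of like level was not computed. M9 and M10–11 minus the anterior midgut was 9.88 log2 units for *Cyp4e3*, 2.53 for *Cyp4d14*, 1.44 for *Cyp4d2*, 1.37 for *Cyp4e2*, 1.28 for *Cyp4d8*, 0.91 for *Cyp4d1* and −0.35 for *Cyp4e1*, the last turning to 0.04 after rescaling to the same summed FPKM. The median was 1.37 over the detected genes, 0.91 over the other Cyp4 genes, 0.16 over the other P450s, −0.01 over all detected entries and −0.10 over entries of the same transcript length. Rescaling to the same summed FPKM moved the median of all detected entries to 0.55, the share past 2-fold to 34.2% and the count to 6 genes.

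This count rested in part on M1, in which *Cyp4d1*, *Cyp4d2*, *Cyp4d8* and *Cyp4d14* were between 1.60 and 2.42 log2 units lower than in M2. Without M1 it was 3 genes, namely *Cyp4e3* (9.76), *Cyp4d14* and *Cyp4e2* (1.20), and the share of all detected entries was not computed. In this setting *Cyp4d2* (0.87), *Cyp4d8* (0.71) and *Cyp4d1* (0.37) were below 2-fold. Single libraries differed in the same way. *Cyp4d1* had 139 FPKM in M9 and 129 FPKM in M2, and *Cyp4d8* had 74.2 FPKM in M9 and 127 FPKM in M2. *Cyp4d14* had 131 FPKM in M9 and 33.3 FPKM in M2, and *Cyp4e2* had 311 FPKM in M9 and 111 FPKM in M2. The comparison of M9 and M10–11 with the anterior midgut left out M12–13, the hindmost posterior subsection. M12–13 minus M10–11 ran from −8.60 log2 units (*Cyp4e3*) to −0.18 (*Cyp4e1*) over the detected genes. The count of genes past 2-fold with M12–13 included was not computed.

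Pearson's r of log10(FPKM + 1) over the 8 libraries was computed for all 21 pairs of detected genes, as a description. The libraries are single and share the normalization, and M6 was low for most of the genes. It was at least 0.9 for 3 of 21 pairs, against 4.63% of all pairs of detected entries. These 3 pairs were *Cyp4d1* and *Cyp4d2* (0.97), *Cyp4d1* and *Cyp4d8* (0.93), and *Cyp4d2* and *Cyp4d8* (0.92). Without M6 they had 0.95, 0.83 and 0.81, which left 1 of 21 pairs at or above 0.9. The share of all pairs of detected entries was not computed without M6, so this count has no background. The median over the 21 pairs was 0.59.

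The likeness did not follow the subfamily names throughout. *Cyp4d14* had an r of 0.80 with *Cyp4e3* and of 0.64 to 0.76 with *Cyp4d1*, *Cyp4d8* and *Cyp4d2*. This difference was small, with 0.77 for *Cyp4e3* and 0.75 for *Cyp4d2* without M6. Without M9 the r of *Cyp4d14* with *Cyp4e3* was 0.71. *Cyp4e2* had 0.77 with both *Cyp4e3* and *Cyp4d2*, and without M6 its r was 0.80 with *Cyp4e3* and 0.51 with *Cyp4d2*. For *Cyp4d8* and *Cyp4e2* r was 0.51 with M6 and −0.05 without it. *Cyp4e1* had no r above 0.26 with any of the other 6 genes.

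**Figure D4:**
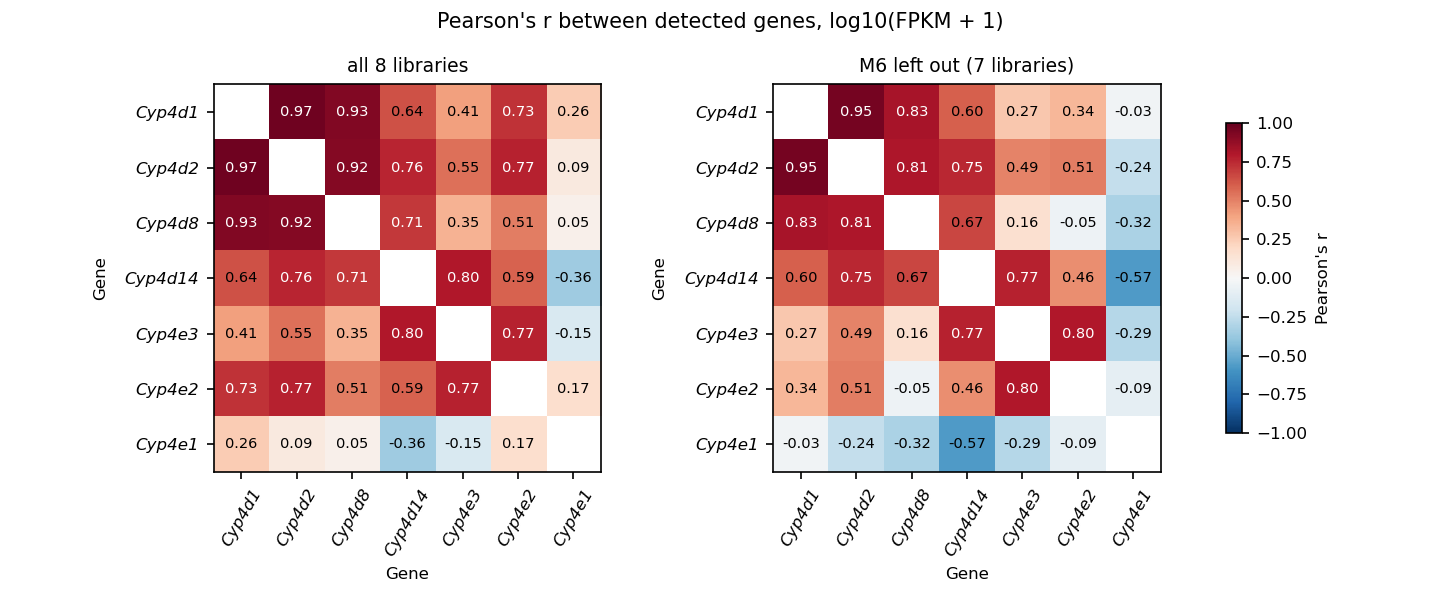
Pearson's r of log10(FPKM + 1) for each pair of the 7 detected genes, over all 8 libraries on the left and over the 7 libraries other than M6 on the right, on a color scale from −1 to 1. *Cyp4d1*, *Cyp4d2* and *Cyp4d8* had 0.92 to 0.97 with each other over 8 libraries and 0.81 to 0.95 without M6.

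Values of r with genes nearby on the chromosome varied widely, and no background of r between neighbors was computed. *Cyp4d1*, *Cyp4d14* and *Cyp4d2* lie in this order on chromosome X. *CG3630*, at 0.558 to 3.09 FPKM, lies between *Cyp4d1* and *Cyp4d14*, with an r of 0.33 with *Cyp4d1* and of 0.87 with *Cyp4d14*. *wapl*, on the other side of *Cyp4d1*, had an r of 0.12 with it. The bundles of *Cyp4d14* and *Cyp4d2* are 501 bases apart. *Cyp4d1* and *Cyp4d2*, the outer genes of this group, had an r of 0.97, while *Cyp4d14* between them had 0.64 with *Cyp4d1* and 0.76 with *Cyp4d2*. *Cyp4ae1*, in the bundle of *Cyp4d2*, had between 2.46 FPKM in M6 and 8.56 FPKM in M3–5, with an r of 0.77 with *Cyp4d2*, and *pn* and *Nmd3*, which follow *Cyp4d2*, had 0.39 and 0.43 with it. *Cyp4d8*, on another chromosome, had 0.93 with *Cyp4d1*, more than *Cyp4d14* had.

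*Cyp4e2* and *Cyp4e1* are neighbors on chromosome 2R, with bundles 286 bases apart, and had an r of 0.17. On the other side of *Cyp4e2* lies *Cyp4ad1*, which had 17.4 (M1), 25.4 (M2), 14.6 (M3–5), 4.15 (M6), 77.3 (M7–8), 680 (M9), 384 (M10–11) and 471 FPKM (M12–13). *Cyp4ad1* was low in the anterior midgut and stayed high to the end of the midgut, where *Cyp4e2* did not, and r was 0.57 between them. Outside both subfamilies it was the most abundant Cyp4 gene in M1 and in every library from M7–8 on. In M2 this was *Cyp4ac3* with 55.4 FPKM, in M3–5 *Cyp4ac1* with 30.8 FPKM and in M6 *Cyp4p2* with 5.51 FPKM. Next to *Cyp4d8*, the P450 gene *Cyp316a1* had at most 3.56 FPKM, in M10–11, and *CG8539* on the other side was highest in M6 and M7–8, at 4.44 and 7.67 FPKM, with an r of −0.82 with *Cyp4d8*, against 0.67 for *Cyp316a1*. On chromosome 2L, *zf30C*, at 3.40 to 6.33 FPKM, had an r of 0.82 with *Cyp4e3*. On the other side of *Cyp4e3*, r was 0.97 for *Nckx30C*, which had at most 0.0210 FPKM, 0.53 for *CG13117* and 0.49 for *CG13116*.

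**Figure D5:**
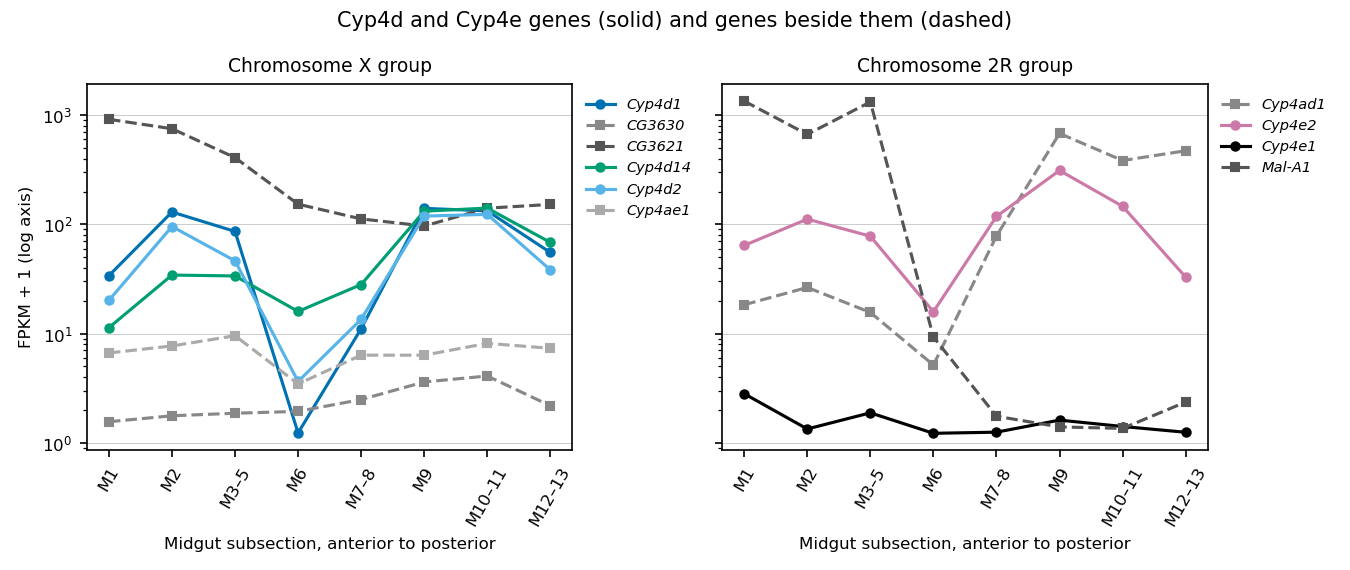
FPKM + 1 on a log axis along the midgut for the genes of the chromosome X group (left) and the chromosome 2R group (right), with *Cyp4d* and *Cyp4e* genes as solid lines and the genes beside them as dashed lines. *CG3621* was highest in M1 and lowest in M9, whereas *Cyp4d14*, which overlaps it, was lowest in M1, with an r of −0.58. *Mal-A1* reached 1345 FPKM in M1 beside 1.81 FPKM for *Cyp4e1*, which overlaps it, with an r of 0.64.

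Among 6078 other entries with a mean FPKM above 3, the pattern most like that of each detected gene was sought, again as r of log10(FPKM + 1) over 8 libraries. For *Cyp4d1* these entries were *CG32250* (0.997), *CG3270* (0.994) and *Mipp1* (0.994), an inositol polyphosphate phosphatase. *Mipp1* had FPKM values of 87.4 (M1), 250.0 (M2), 253 (M3–5), 3.27 (M6), 41.0 (M7–8), 301 (M9), 256 (M10–11) and 160.5 (M12–13). For *Cyp4d2* they were the dipeptidase gene *Dip-C* (0.981), *Mtpalpha* (0.979), which encodes an enzyme of mitochondrial fatty acid β-oxidation, and *CG4615* (0.979). For *Cyp4d8* they were *Cyp4ac1* (0.988), *CG5973* (0.979) and *CG14629* (0.978). *Cyp4ac1* had FPKM values of 10.5 (M1), 39.3 (M2), 30.8 (M3–5), 0.445 (M6), 4.76 (M7–8), 35.6 (M9), 59.7 (M10–11) and 48.3 (M12–13). Its highest values were in M10–11 and M12–13, as were those of *Cyp4d8*, to which it was matched over these same libraries.

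For *Cyp4d14* the most similar entries were *CG4872* (0.971), the esterase gene *Est-Q* (0.970) and *CG6568* (0.967). *Est-Q* had FPKM values of 2.92 (M1), 21.6 (M2), 28.8 (M3–5), 3.71 (M6), 29.1 (M7–8), 164 (M9), 123 (M10–11) and 57.8 (M12–13). For *Cyp4e2* they were *CG1109* (0.979), *Alas* (0.972), the first enzyme of heme synthesis, and *CG1575* (0.969). *Alas* had 46.2 FPKM in M1, 22.6 FPKM in M6, 89.6 FPKM in M9 and 38.7 FPKM in M12–13, a smaller range than that of *Cyp4e2*. For *Cyp4e3* they were *Grip* (0.984), *CG6175* (0.979) and *CG2218* (0.978), of which *Grip* had 17.5 FPKM in M9, 7.14 FPKM in M10–11, 1.92 FPKM in M7–8 and at most 0.567 FPKM in the other libraries. For *Cyp4e1* r was at most 0.912, with *CG4199*, followed by *CG8892* (0.904) and *CG7017* (0.902).

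An r of at least 0.95 was reached by 60 entries for *Cyp4d1*, 20 for *Cyp4d2*, 14 for *Cyp4d8*, 9 for *Cyp4d14*, 6 for *Cyp4e2*, 14 for *Cyp4e3* and none for *Cyp4e1*. At 0.9, *Cyp4d1* had 194 of 6078 entries over all libraries and 42 without M6, and *Cyp4e3* had 81 and 146. Over all pairs of detected entries, 4.63% had an r of at least 0.9 over the 8 libraries. Shares at 0.95, without M6 or among entries with a mean FPKM above 3 were not computed.

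Markers of midgut regions and of other tissues were read in every library. The copper cell genes *lab* and *Vha100-4* were highest in M6, with a sum of 665 FPKM, and the iron cell gene *Fer1HCH* in M7–8, with 7035 FPKM. *lab* and *Vha100-4* also had 2.53 and 44.2 FPKM in M3–5. The enterocyte gene *mex1* ranged from 316 FPKM in M7–8 to 2816 FPKM in M3–5. Markers of other tissues were low, except for visceral muscle genes and, in the anterior midgut, fat body genes. The 6 fat body genes summed to between 0.293 FPKM in M10–11 and 35.3 FPKM in M1. Of these, *Fbp2* had 12.1 (M1), 5.53 (M2) and 2.08 FPKM (M3–5), and at most 0.907 FPKM in the other libraries. *Lsp1gamma* had 12.9 FPKM in M3–5, whereas *Fbp1* had at most 0.0999 FPKM in any library. The part of fat body RNA in the anterior values was not tested. The 4 Malpighian tubule genes summed to between 0.428 FPKM in M1 and 1.53 FPKM in M12–13. The 2 hindgut genes summed to 0.0769 FPKM in M12–13 and were listed at 0 in the other 7 libraries. The sum was at most 0.381 FPKM for the 4 salivary gland genes and at most 0.988 FPKM for the 4 hemocyte genes. The 6 visceral muscle genes, whose cells surround the midgut, summed to between 514 FPKM in M6 and 1691 FPKM in M12–13, and their part in the values above was not tested.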

How the data were processed

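RNA from 8 midgut subsections was sequenced by the authors as short, unstranded single-end reads, 1 library per subsection. Low-quality reads were removed, and the rest were mapped to the annotated genome (release 5) with TopHat2 2.0.6 and quantified with Cuffdiff 2.0.2, as listed in the submitters' processing notes. To obtain the deposited FPKM, the authors scaled libraries by the upper quartile, corrected for multiply mapped reads and fragment bias, and used a blind dispersion. The deposited table also holds 95% intervals and a quantification status, which was OK for all 9 genes and not for 143 entries. Read counts are not in the table, so the depth behind a value is unknown and no count model was run. The 1 entry without an identifier (4.24% to 48.4% of the summed FPKM) was left out.

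Members and lists were chosen with earlier results of these data known. Differences are of log2(FPKM + 1), and detected means a summed FPKM of at least 1. Named are the 9 genes, the 3 entries with a mean FPKM above 3 most similar to each by r, the nearest entries on the chromosome, the 2 most abundant other Cyp4 genes per library, *Cpr*, *Cyt-b5*, and regional and tissue markers. Where several neighbors met this rule, those that bear on a result are given. P450s are genes named Cyp, number, letters, number. Coordinates are those of the Cuffdiff bundles. Strands, overlaps and transcript lengths come from a release 6 annotation joined by identifier. Protein and promoter sequences were not analysed here.

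Alternatives were another pseudocount (0.1), another detection limit (10 in place of 1, or none), another scaling (each library to a sum of 1000000, or by its median ratio), leaving out entries whose status was not OK, and leaving out each library. Removal of the median of entries of the same transcript length was added after the data had been seen. Calculations used Python 3.11.15, numpy 2.4.6, pandas 2.3.3 and matplotlib 3.10.9 and were tested on simulated data.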

Additional observations from a re-analysis of the deposited data

How the results depend on the processing

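Of 75 counts recomputed under an alternative, 73 stayed within 1.5 times the value reported. The others were pairs of genes with r of at least 0.9, of which there was 1 without M6 in place of 3, and genes at least 2-fold higher in M9 and M10–11 than in the anterior midgut, of which there were 3 without M1 in place of 5. Some of the 75 could not change. Leaving out entries whose status was not OK could not affect these genes, as all 9 were OK. The comparison of M9 and M10–11 with the anterior midgut could not change when a library outside it was left out. A change from 6 to 4 genes lowest in M6, after rescaling to the same summed FPKM, lay within the limit of 1.5 times. With each library left out in turn, the genes highest in M9 or M10–11 numbered 5 to 6, those lowest in M6 6 to 7, those at least 4-fold below the other libraries in M6 5 in every case, those at least 2-fold higher in M9 and M10–11 3 to 6, and the pairs 1 to 3. The counts about M6 have no value without M6. No paired analysis was possible because each subsection has 1 library and no test was made. With a summed FPKM of at least 10, 6 genes were detected and 5 were lowest in M6, and with no limit 9 were counted and 7 were highest in M9 or M10–11. With the median of entries of the same length removed, 5 genes were at least 4-fold lower in M6 and 6 at least 2-fold higher in M9 and M10–11. Matching shares of all entries were not computed with a library left out, another pseudocount, another detection limit or the length median removed. The reads behind low values, such as those of *Cyp4e1*, are unknown.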
